A study of Mus musculus with 64 samples.

Results

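Venlafaxine was compared with saline in the nucleus accumbens (NAc), a ventral striatal region, 2 h after a single injection. The comparison was chosen by the sample labels alone and holds 12 of the 64 libraries of the series: 4 from venlafaxine-treated mice and 8 from saline-treated mice. The animals were adult male C57BL/6N mice aged 8 to 10 weeks. They received venlafaxine (16 mg/kg) in saline or saline alone, each as one intraperitoneal injection in 10 ml/kg. By their labels, 4 saline libraries belong to sample set I and 4 to sample set II. Ribosomal RNA was depleted from total RNA, and the libraries were sequenced on an Ion Torrent instrument.

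Venlafaxine blocks the serotonin transporter and, at higher doses, the noradrenaline transporter, so that both transmitters stay longer outside the cell. The NAc consists mainly of medium spiny neurons, GABA-releasing projection cells that express D1 or D2 dopamine receptors and receive serotonin, noradrenaline and dopamine fibres from the brain stem. Neuronal firing and receptor signalling raise immediate early genes there within minutes to hours, among them Fos, Arc, Egr1 and Nr4a1, many of them through the transcription factor CREB.

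The level of a gene is given in FPKM, which counts fragments relative to transcript length and library size, summed over the transcripts of the gene. Between 2.03 and 3.26 gigabases were aligned in these 12 libraries. The 4 venlafaxine libraries had 108515 to 110556 transcripts above 0 and those of saline set II 109231 to 110063, whereas saline set I had 85397 to 87827. In a fit with the sets as separate groups, 5008 of 29240 genes (17.1%) differed between the saline sets themselves (limma, Benjamini-Hochberg adjusted p under 0.05). Differences are therefore given against saline set II, and for the counts, lists and main genes also against all 8 saline libraries. Saline set II shares the transcript number of the venlafaxine libraries. The labels do not say that the replicates came from separate mice, so p-values measure the spread between these libraries. The medium spiny neuron markers Ppp1r1b (113 to 189 FPKM in venlafaxine and saline set II) and Penk (173 to 263 FPKM) were high, and the 16 markers of this cell type all passed the filter on low values, a mean of at least 0.1 FPKM.

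Against all 8 saline libraries, 26 of 29240 genes passed the test (0.0889%), 14 higher (0.0479%) and 12 lower (0.0410%) after venlafaxine. Against saline set II, 0 of 34622 genes passed (0%), and the lowest adjusted p was 0.389 in limma. In that comparison 1683 genes (4.86%) had an unadjusted p under 0.05, of which 705 were higher (2.04%) and 978 were lower (2.82%). The median log2 difference over all genes was 0.023 against all saline and -0.001 against saline set II. For the 15216 genes with a mean of at least 1 FPKM, the 95% interval of a difference from saline set II had a median half-width of 0.22 on the log2 scale, a 1.17-fold change, and a 90th percentile of 0.39, a 1.31-fold change. Rescaling each library to the same 75th percentile gave 175 higher and 72 lower genes, beside 14 and 12. The 26 calls became 0 when the fit held only the 12 venlafaxine and saline libraries, and 0 without venlafaxine replicate 3. Taken alone, saline set I gave 6935 genes as different from venlafaxine.

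**Figure D1:**
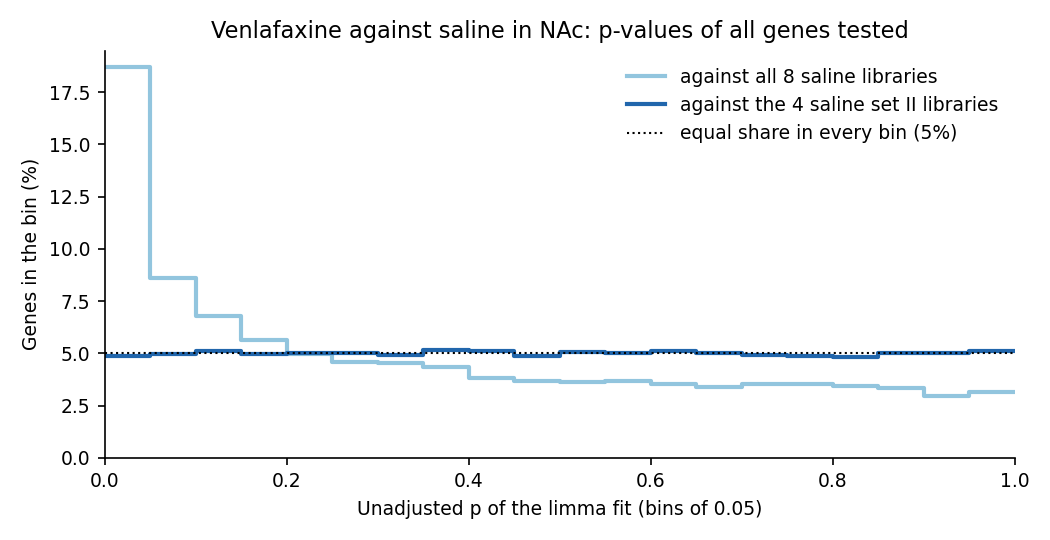
Share of genes (%) in each bin of 0.05 of the unadjusted p from limma, for venlafaxine against all 8 saline libraries (light blue, 29240 genes) and against the 4 saline set II libraries (dark blue, 34622 genes). The first bin holds 18.7% of the genes against all saline and 4.86% against saline set II, where the line stays near the dotted 5% of an equal share.

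Most immediate early genes had lower means after venlafaxine than in the saline libraries, by small amounts. The list was chosen with earlier results of these data known. Its members were measured in the same libraries, so they are not separate observations. Of the 28 members of this list, 24 had a log2 difference below 0 against saline set II, and the median was -0.15, beside -0.001 over all genes. An unadjusted p under 0.05 was reached by 6 members, all of them lower (Arc, Nr4a1, Egr1, Npas4, Junb and Egr2), where 2.82% of all genes were lower at that level. None of the 28 passed after adjustment in this comparison. Against all saline, 25 members were below 0, the median was -0.19 and 2 fell after adjustment, Nr4a1 and Arc, where 12 of 29240 genes (0.0410%) did. The summed FPKM of the list was 92.1 to 113 in the venlafaxine libraries, 115 to 119 in saline set II and 128 to 131 in saline set I, so that the groups did not overlap. Abundant members weigh most in this sum. One of them, Homer1, had a mean of 42.3 FPKM over the libraries of the fit and a difference of -0.04 from saline set II. How often sums of other gene sets separate in this way was not counted. In bulk tissue, fewer cells that express a gene and less of its RNA per cell cannot be told apart.

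To show what the promoters of 2 of these genes look like, and that of the Dclk1 transcript described later, the 250 bases before their RefSeq start (GRCm38.p6) are given 5′ to 3′ on the strand of the gene. Capitals mark TGACG or its reverse complement CGTCA, the core of the cAMP response element (CRE) that CREB binds, in Nr4a1 (chr15:101266596-101266845, plus strand) and Npas4 (chr19:4989972-4990221, minus strand). In Dclk1 (chr3:55461478-55461727, plus strand) they mark TGANTCA, the same on both strands, a heptamer of the kind that AP-1 dimers of Fos and Jun proteins bind.
Nr4a1: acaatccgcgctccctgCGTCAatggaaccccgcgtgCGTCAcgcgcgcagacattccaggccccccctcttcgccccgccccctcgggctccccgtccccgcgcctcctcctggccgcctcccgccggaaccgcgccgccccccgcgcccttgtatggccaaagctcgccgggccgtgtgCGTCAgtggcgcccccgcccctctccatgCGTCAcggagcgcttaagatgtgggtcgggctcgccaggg
Npas4: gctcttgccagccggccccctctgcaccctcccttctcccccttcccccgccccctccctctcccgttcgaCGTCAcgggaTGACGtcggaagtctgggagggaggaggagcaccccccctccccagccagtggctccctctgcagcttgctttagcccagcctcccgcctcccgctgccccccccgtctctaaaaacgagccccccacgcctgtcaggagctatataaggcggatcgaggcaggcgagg
Dclk1: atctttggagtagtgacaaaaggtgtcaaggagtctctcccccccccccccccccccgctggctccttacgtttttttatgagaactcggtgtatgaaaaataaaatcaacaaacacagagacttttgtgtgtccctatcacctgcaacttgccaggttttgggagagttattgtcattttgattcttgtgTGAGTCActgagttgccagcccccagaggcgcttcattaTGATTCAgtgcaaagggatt
The Nr4a1 stretch holds 4 CRE cores, beginning 233, 213, 69 and 40 bases before the start, and the Npas4 stretch holds 2, beginning 179 and 169 bases before it. Such a core, searched on both strands, is in 17.8% of the 32841 RefSeq promoters of this length. Among the immediate early genes, 22 of 28 have such a promoter, and Arc, Egr1, Egr3, Fosl1, Ier2 and Dusp4 have none. Of these 22, 16 hold the core in at least one of their promoters. This count is per gene, and Egr2 has 5 promoters, whereas the 17.8% is per promoter. Nr4a1, Npas4, Junb and Egr2 hold the core, and so do Fosb, Btg2, Homer1 and Maff, with differences of -0.07 to 0.02 from saline set II. The full palindrome TGACGTCA, which contains the core, is in 1.55% of all promoters and in those of 3 of the 22 genes, Btg2, Dusp1 and Maff. The Dclk1 stretch holds 2 matches of TGANTCA, 59 and 20 bases before the start, and 6.75% of all promoters hold it. These motifs were chosen after the values were known, and a match is a string of letters, not a bound site.

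Nr4a1 (chr15:101266846-101274792), which encodes the orphan nuclear receptor Nur77, had FPKM values of 2.24, 2.34, 1.59 and 2.13 after venlafaxine. It had 3.32, 2.78, 3.21 and 2.62 in saline set II and 4.52, 3.19, 4.20 and 4.34 in saline set I. All 4 venlafaxine libraries were below all 8 saline libraries, an arrangement found for 151 of 15216 genes (0.992%), and saline set I was above saline set II. The mean was 2.07 ± 0.334 FPKM (SD, n = 4) against 2.99 ± 0.335 in saline set II, a log2 difference of -0.38 ± 0.093 (SE; limma adjusted p = 0.915). Against all saline the log2 difference was -0.55 ± 0.1 (SE; limma adjusted p = 0.0195). The exact permutation test gave p = 0.00404 against all saline and p = 0.0286 against saline set II, the smallest that 4 against 8 and 4 against 4 libraries can give. Nr4a1 was named in part for this full separation, which fixes both values, so they add no support.

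Arc (chr15:74669083-74672570) encodes a protein of dendritic spines that controls the number of AMPA receptors. Its FPKM values were 3.99, 3.59, 3.38 and 4.94 after venlafaxine, 6.68, 5.25, 5.12 and 5.81 in saline set II, and 7.49, 6.44, 7.32 and 7.5 in saline set I. Again no venlafaxine library reached the lowest saline library. The log2 difference was -0.44 ± 0.118 from saline set II (SE; limma adjusted p = 0.939) and -0.58 ± 0.111 from all saline (limma adjusted p = 0.0296). The ratio of the mean FPKM to that of saline set II was 0.696.

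For Egr1, a zinc finger transcription factor, the venlafaxine libraries held 8.95, 7.72, 6.49 and 6.73 FPKM, saline set II 9.96, 10.2, 9.34 and 8.59, and saline set I 8.61, 9.26, 8.15 and 9.06. The highest venlafaxine library lay within both saline ranges. The log2 difference from saline set II was -0.32 ± 0.086 (unadjusted p = 0.00222 and adjusted p = 0.939 in limma), and from all saline -0.27 ± 0.081 (adjusted p = 0.0857). Junb, a subunit of AP-1, had 2.00 to 3.65 FPKM after venlafaxine, 3.10 to 4.50 in saline set II and 5.41 to 6.74 in saline set I. Its overlap with saline set II and the gap to saline set I show how much the size of the difference depended on the saline set. Npas4, a transcription factor induced by calcium entry, had 0.944 to 1.68 FPKM against 1.61 to 2.38 in saline set II. Egr2, another zinc finger factor, had 0.516 to 0.817 FPKM against 0.825 to 1.07 in saline set II without overlap, as 2.01% of genes with a mean of at least 1 FPKM lay below that set, but saline set I had 0.370 to 0.880.

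Fos, the best known of these genes, had 2.28, 1.68, 1.74 and 2.21 FPKM after venlafaxine and 3.40, 1.59, 2.73 and 2.02 in saline set II, and these ranges overlapped. Its log2 difference from saline set II had an interval of -0.50 to 0.13. The 4 members with a difference above 0 were Jun, Maff, Dusp4 and Fosl1, the last of these with the highest value, 0.12. Dusp1, Dusp5 and Dusp6, phosphatases that switch off MAP kinases, had differences of -0.18, -0.21 and -0.09, and none of these reached an unadjusted p of 0.05.

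**Figure D2:**
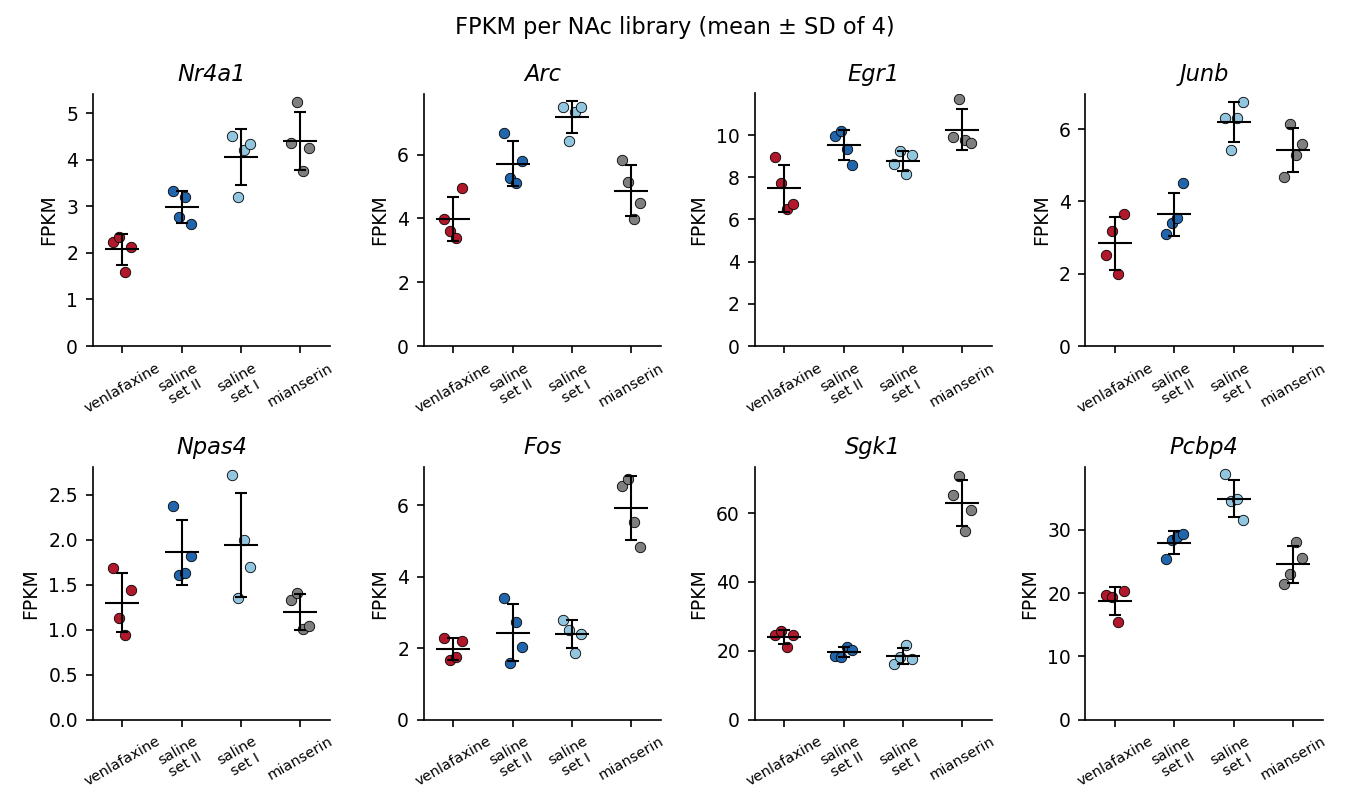
FPKM (linear axis from 0) of 8 genes in each NAc library of venlafaxine, saline set II, saline set I and mianserin, with points for libraries and bars for mean ± SD of 4. Nr4a1, Arc and Pcbp4 are lower in all 4 venlafaxine libraries than in the 8 saline libraries, and Fos and Sgk1 are high in mianserin but not in venlafaxine.

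The same list was looked at in the prefrontal cortex (PFCx), where 4 venlafaxine and 4 saline set II libraries exist, after its NAc values were known. There 19 of 28 members were below 0 with a median of -0.06, and 5 were lower and 1 higher at an unadjusted p under 0.05, where 7.96% of all genes were lower and 2.89% higher at that level. After adjustment 2 members fell, where 394 of 35419 genes (1.11%) passed in that tissue. Nr4a1 had a log2 difference of -0.47 in the PFCx (limma adjusted p = 0.0313), Arc -0.36 (adjusted p = 0.382) and Egr1 -0.23 (adjusted p = 0.366). Homer1, which encodes a scaffold of the postsynaptic density, fell by 0.37 on the log2 scale in the PFCx (limma adjusted p = 0.011) and differed by -0.04 in the NAc. The difference of the effect between the tissues did not pass for any member, the lowest adjusted p being 0.304 in limma. The labels do not say whether the NAc and PFCx libraries came from the same mice.

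**Figure D3:**
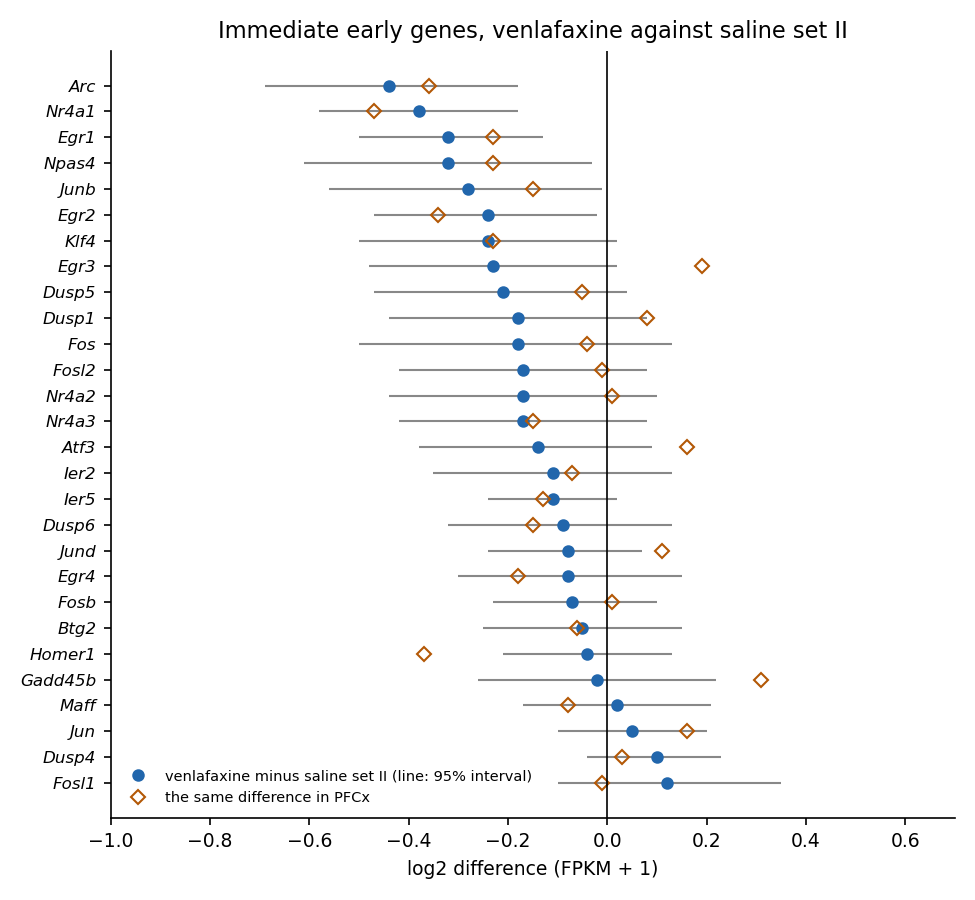
Log2 difference between venlafaxine and saline set II (FPKM + 1) for the 28 immediate early genes, with filled circles and 95% intervals for the NAc and open diamonds for the PFCx. In the NAc 24 of 28 circles lie left of 0, and the intervals of Arc, Nr4a1, Egr1, Npas4, Junb and Egr2 do not reach it.

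Transcript length was looked at in genes with a mean of at least 1 FPKM. Among those with a longest transcript of over 200 bases, length moved with the median difference. Genes whose longest transcript had over 200 and up to 1000 bases had a median log2 difference of -0.089 from saline set II (1887 genes), the next class, up to 2000 bases, -0.040, the class after it, up to 4000 bases, -0.017 and genes over 4000 bases -0.004. In the shortest of these classes 141 genes were lower and 24 higher at an unadjusted p under 0.05. The following classes had 137 lower and 41 higher of 2560 genes, 210 and 88 of 5340, and 108 and 103 of 4675. Of all 34622 genes tested, 2.82% were lower and 2.04% higher at that level. These shares include genes below 1 FPKM, which the classes leave out, so they are not shares of the same set. Genes of up to 200 bases went the other way, with a median of 0.062. The 6 immediate early genes with an unadjusted p under 0.05 had longest transcripts of 1840 (Junb) to 4484 bases (Egr1). The part of length in any of these differences was not tested.

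Of 19 CREB targets and plasticity genes, 14 were below 0 against saline set II with a median of -0.05, and 2 were lower at an unadjusted p under 0.05, where 2.82% of all genes were. Against all saline 13 were below 0 with a median of -0.09. The 2 genes were Rgs2, which limits signalling of Gq-coupled receptors, with 9.24 to 11.6 FPKM against 10.8 to 13.3, and Vgf, a secreted peptide precursor, with 14.5 to 19.6 FPKM against 19.5 to 21.7. None of the 19 passed against either control after adjustment. Bdnf and the other members had no unadjusted p under 0.05.

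Sgk1 (chr10:21882184-21999903), a serum- and glucocorticoid-regulated kinase, had the lowest p against saline set II of the list members above 0. Its FPKM values were 24.5, 25.6, 21.0 and 24.6 after venlafaxine, 18.6, 18.3, 21.2 and 20.3 in saline set II, and 16.1, 18.2, 21.6 and 17.6 in saline set I. Venlafaxine replicate 3 lay inside the saline range and the other 3 libraries above it. The log2 difference from saline set II was 0.27 ± 0.081 (interval 0.10 to 0.45, unadjusted p = 0.00389 and adjusted p = 0.981 in limma), and from all saline 0.32 ± 0.113 (adjusted p = 0.126). Among its transcripts, the shorter coding form ENSMUST00000020145 had 3.23, 3.45, 3.45 and 5.27 FPKM after venlafaxine and 1.58, 2.43, 2.18 and 2.96 in saline set II, without overlap, as 1.34% of transcripts with a mean of at least 1 FPKM lay above that set. The form that begins furthest upstream, ENSMUST00000120509, had 4.67 to 5.78 FPKM after venlafaxine and 4.78 to 5.79 in saline set II. Of all 22 glucocorticoid-responsive genes, 9 were above and 13 below 0 with a median of -0.04 (all saline, -0.06), and Per1, also a clock gene, was lower with 5.4 to 7.41 FPKM against 7.41 to 9.30 (unadjusted p = 0.0231).

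No gene of the monoamine transporters, enzymes and receptors had an unadjusted p under 0.05 against saline set II. Slc6a4, the serotonin transporter that venlafaxine binds, had 0.184, 0.127, 0.508 and 0.331 FPKM after venlafaxine and 0.386, 0.155, 0.292 and 0.402 in saline set II, and Slc6a2, the noradrenaline transporter, had 0.0788 to 0.230 against 0.126 to 0.156. Both are made mainly in brain stem neurons and were near the filter of 0.1 FPKM here. The interval of the log2 difference from saline set II was -0.23 to 0.17 for Slc6a4 and -0.14 to 0.10 for Slc6a2. Of the 13 genes of this list 9 were below 0 with a median of -0.03, and of the 14 serotonin receptor genes 7 were below 0 with a median of 0.01. Of the 9 adrenergic receptor genes 5 were below 0 with a median of -0.08. Against all saline the medians of these lists were 0.09, 0.06 and -0.05, so that the first had the opposite sign. The lowest unadjusted p in these lists belonged to Slc18a2, the vesicular monoamine transporter (0.0725), Adra2b (0.0768) and Htr1f (0.0846).

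Of the genes of the cell types, the medium spiny neuron list had 13 of 16 members below 0 with a median of -0.06 (all saline, -0.11), and none reached an unadjusted p of 0.05. Drd1 had 31.1 to 35.9 FPKM after venlafaxine against 29.5 to 36.1 in saline set II, and Drd2 12.3 to 16.5 against 13.6 to 18.3. Tac1, the substance P precursor of D1-receptor cells, had 30.9 to 57.9 FPKM against 45.8 to 64.1 and 65.6 to 74.7 in saline set I. The 17 neuropeptide genes tested had a median of -0.08 (all saline, -0.16), with 14 below 0. The interneuron list had a median of 0.00, the cortical neuron list 0.03, the septal and ventral neighbours 0.01, astrocytes -0.02, oligodendrocytes -0.03 and vessels 0.00. The choroid plexus list had a median of 0.03, the mitochondrial genome 0.03 and nuclear noncoding RNAs -0.01. Against all saline the cortical neuron list had a median of -0.14, astrocytes -0.10, oligodendrocytes -0.15, choroid plexus 0.12 and the mitochondrial genome 0.09. The septal list had 0.06, vessels 0.01, interneurons 0.00 and nuclear noncoding RNAs -0.02.

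Blood and microglia genes lay in the same direction as the immediate early genes. All 5 erythrocyte genes were below 0 against saline set II with a median of -0.36 (all saline, -0.59), and their summed FPKM was 32 to 52.7 after venlafaxine, 40.2 to 71.1 in saline set II and 74.1 to 102 in saline set I. Hba-a2, an alpha globin gene, had 4.92 to 10.6 FPKM against 8.26 to 13.6 (unadjusted p = 0.0419). Of 10 microglia genes 8 were below 0 with a median of -0.10 (all saline, -0.13), and their summed FPKM was 36.8 to 44.0 against 44.3 to 48.2, without overlap. C1qa, a complement component, had 2.94 to 3.93 FPKM against 4.07 to 5.04, and all 4 venlafaxine libraries were below all saline libraries. Their part in the immediate early gene differences was not tested.

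Among the remaining lists, 8 of 16 clock genes were below 0, with a median of -0.01 (all saline, -0.02). Of 13 temperature and heat shock genes 7 were below 0 with a median of -0.03 (all saline, -0.12). Hspa5, the chaperone BiP of the endoplasmic reticulum, had 23.6, 24.1, 24.8 and 23.0 FPKM after venlafaxine and 27.3, 27.5, 29.5 and 29.6 in saline set II, with saline set I between 27.5 and 33.0. The venlafaxine libraries were thus below all saline libraries, by a log2 difference of -0.25 ± 0.070 from saline set II (unadjusted p = 0.0032 and adjusted p = 0.939 in limma) and -0.27 ± 0.071 from all saline (adjusted p = 0.0586). Of 15 splicing regulators 9 were below 0 with a median of -0.03 (all saline, -0.06), and Srsf6 was lower with 12.4 to 14.0 FPKM against 14.0 to 14.9 (unadjusted p = 0.0484).

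**Figure D4:**
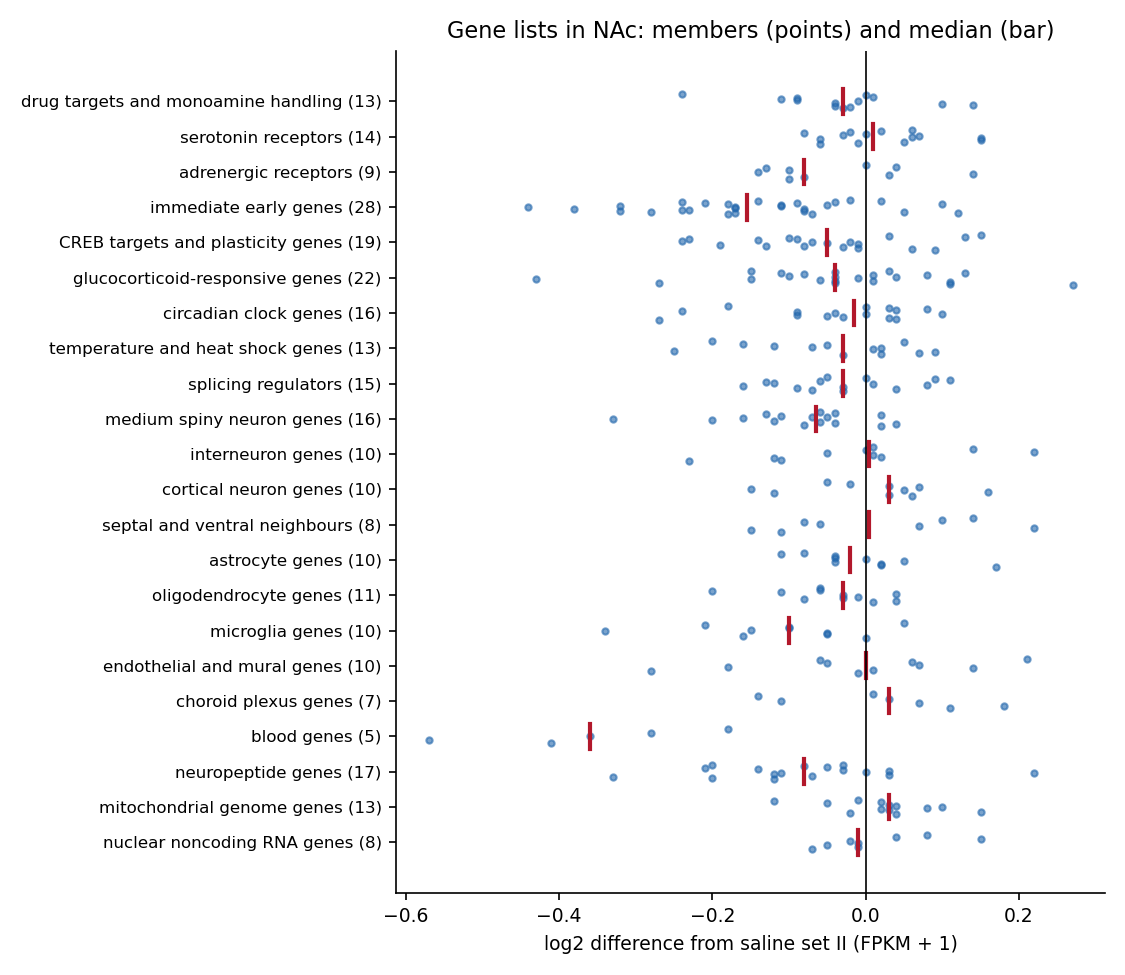
Log2 difference from saline set II (FPKM + 1) for the members of 22 gene lists in the NAc, with the number tested in parentheses, points for genes and bars for medians. The medians lie between -0.36 (blood genes) and 0.03, and the immediate early genes have the second lowest.

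Outside the lists, the genes with the lowest p among those whose venlafaxine libraries all lay outside the saline range are described next. Of 15216 genes, 52 (0.342%) lay above and 151 below all saline libraries, and 1.11% lay above saline set II. Pcbp4 (chr9:106453291-106464012), an RNA-binding protein of the poly(C) family, had 19.7, 19.4, 15.5 and 20.3 FPKM after venlafaxine, 25.4, 28.4, 28.9 and 29.3 in saline set II, and 38.8, 34.6, 34.9 and 31.6 in saline set I. The 3 groups did not overlap. It had the lowest p against saline set II among the genes with a mean of at least 1 FPKM (log2 difference -0.56 ± 0.093, limma adjusted p = 0.389), and it fell against all saline (-0.72 ± 0.106, limma adjusted p = 0.00336). Among its transcripts, the coding ENSMUST00000024260 had 5.82 to 8.24 FPKM after venlafaxine, 5.42 to 9.06 in saline set II and 10.9 to 13.5 in saline set I. The intron-retaining ENSMUST00000189882 had 0.721 to 1.93 FPKM against 2.75 to 5.02 in saline set II and 0.711 to 3.53 in saline set I. Like it, 1.73% of transcripts with a mean of at least 1 FPKM lay below saline set II.

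Among the other lower genes, Snrk, a kinase of the AMPK family, had 11.2 to 12.1 FPKM against 13.2 to 15 in saline set II. Its longest form, ENSMUST00000120173, was not lower, with 5.06 to 5.73 FPKM against 4.58 to 5.68 in that set. Mpnd had 6.26 to 11.2 FPKM against 12.3 to 14.4, Tmem256 1.68 to 3.10 against 3.73 to 6.10, and Leo1, a subunit of the PAF1 transcription elongation complex, 1.87 to 2.47 against 2.79 to 3.09. The remaining ones were the pseudogenes Gm13127, Rpsa-ps4 and Gm2810 and the small nucleolar RNA Snora74a. Pseudogenes share sequence with their parent genes, so their reads may be assigned uncertainly. Snora74a is 196 bases long and had at most 2.52 FPKM after venlafaxine against 5.79 to 11.3 in saline set II and 17.5 to 37.3 in saline set I.

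Of the 10 higher genes, Gda, the guanine deaminase also known as cypin, had the highest level, with 24.6, 26.0, 25.2 and 24.3 FPKM after venlafaxine, 22.5, 21.7, 22.8 and 21.4 in saline set II and 18.2 to 23.3 in saline set I. Nucks1, a nuclear chromatin protein, had 17.6 to 18.1 FPKM against 15.1 to 16.2 in saline set II. Phf6, a PHD finger protein, had 4.20 to 4.86 FPKM against 3.21 to 3.72, although the difference was -0.004 when aligned bases were summed instead of FPKM. Its longest form, ENSMUST00000078944, was not higher, with 1.67 to 2.27 FPKM against 1.81 to 2.34. Cdkl4 had 1.82 to 2.01 FPKM against 1.25 to 1.63, and Gstm6, a glutathione transferase, 1.06 to 2.14 against 0.302 to 0.906. Saxo2, Gm28320 and Gm14435 were below 5 FPKM. The other members were 2 very short genes, Gm11114 (57 bases) and the miRNA gene AC157602.1 (105 bases), both at or near 0 in saline set I. None of the 10 passed against saline set II after adjustment.

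The 26 genes called against all saline were Nr4a1, Arc and 8 others named so far, and 16 more. Of these 16, the lower ones were Sars, the seryl-tRNA synthetase (mean 10.6 FPKM against 13.1 in saline set II and 18.2 in saline set I), BC029722, Timm13 and Rps18-ps3. The 12 higher ones had means of 0.247 (2310002L09Rik) to 1.58 FPKM (Tex30) after venlafaxine. Atp6v0a4, a proton pump subunit, is an example, with a mean of 0.993 FPKM after venlafaxine, 0.524 in saline set II and 0.0304 in saline set I.

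Single transcripts gave 6 calls of 71879 against all saline (0.00835%) and 1 of 79652 against saline set II (0.00126%). The latter was an intron-retaining transcript of Matk (ENSMUST00000126720, chr10:81257448-81260526, 6 exons, 1075 bases), from the gene of a kinase that inhibits Src family kinases. It was listed at or near 0 in 3 venlafaxine libraries and at 0.207 FPKM in the other, against 1.67, 2.23, 2.46 and 2.28 FPKM in saline set II and 1.07 to 2.68 in saline set I. Its log2 difference from saline set II was -1.59 ± 0.158 (limma adjusted p = 0.00607). From all saline it was -1.42 ± 0.314 and did not pass (limma adjusted p = 0.114). The call was lost with a pseudocount of 0.1 and with all 32 NAc libraries in the fit. It was also lost with a mean of at least 1 FPKM as the filter, which this transcript does not meet. Cufflinks divides reads among the isoforms of a gene, and an estimate at 0 can be a failed one.

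Dclk1, doublecortin-like kinase 1, is the gene the study followed. Summed over its 15 transcripts it had a mean of 90.7 FPKM after venlafaxine and 88.7 in saline set II, a log2 difference of 0.033. The form that the study names Carp (ENSMUST00000199585, chr3:55461728-55471318, 3 exons) begins at the base after the Dclk1 stretch printed above. Carp had 8.72, 7.31, 7.25 and 6.49 FPKM after venlafaxine, 4.72, 4.75, 4.66 and 4.64 in saline set II, and 3.54, 1.00, 4.07 and 2.21 in saline set I. All venlafaxine libraries were above all saline libraries, as were 92 of 24845 transcripts (0.370%). The log2 difference was 0.56 ± 0.118 from saline set II (unadjusted p = 0.00029 and adjusted p = 0.702 in limma) and 0.92 ± 0.244 from all saline (limma adjusted p = 0.162).

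Dcl (ENSMUST00000167204, 7 exons), which begins far upstream of Carp and ends beside its end, had 1.93, 3.59, 3.81 and 4.33 FPKM after venlafaxine and 5.02, 4.32, 5.70 and 5.28 in saline set II. Venlafaxine replicate 4 lay just above the lowest saline library, and the log2 difference was -0.49 ± 0.196 from saline set II (unadjusted p = 0.0248) and -0.61 ± 0.169 from all saline (limma adjusted p = 0.175). The intron-retaining form ENSMUST00000198757 had 5.78 to 6.96 FPKM against 4.93 to 5.68. The most abundant form, ENSMUST00000198437, had 26.9 to 32.8 FPKM against 28.9 to 33.6. Carp and Dcl overlap over the span of Carp, and reads there are divided between them by Cufflinks, so their estimates are not independent.

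**Figure D5:**
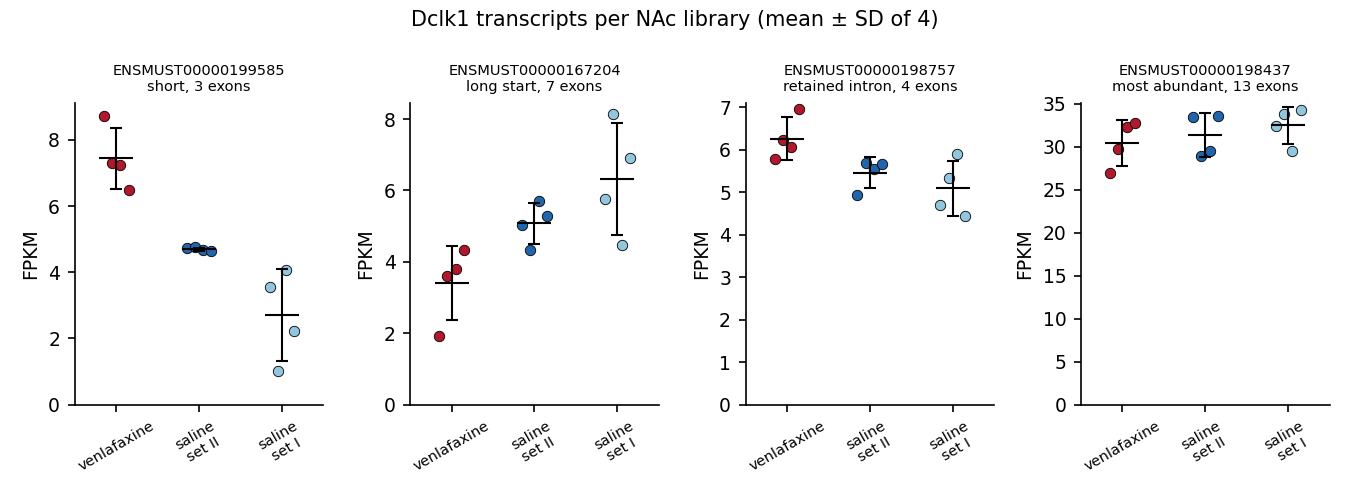
FPKM (linear axis from 0) of 4 Dclk1 transcripts per NAc library of venlafaxine, saline set II and saline set I, with bars for mean ± SD of 4. The short 3-exon form is higher in all 4 venlafaxine libraries (6.49 to 8.72) than in any saline library (at most 4.75), and the form of 13 exons overlaps between the groups.

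The other transcripts with the lowest p among those outside the saline range follow. A retained-intron form of Bcan, a proteoglycan of the extracellular matrix, had 7.54 to 8.88 FPKM after venlafaxine against 4.59 to 6.15 in saline set II. A nonsense-mediated decay form of Rps13 had 2.90 to 4.45 against a range reaching 1.89, and forms of Gpd1l, Mctp1, Pik3c2a and Ptprg were higher with venlafaxine means of 1.20 to 3.91 FPKM. A retained-intron form of Ctnnb1, the beta-catenin gene, had at most 0.264 FPKM against 0.832 to 3.70, and lay below all saline libraries as did 0.692% of transcripts.

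Mianserin (20 mg/kg), an antidepressant that blocks serotonin, alpha2-adrenergic and histamine receptors, was also sampled 2 h after injection. The titles of its libraries name no sample set. They had 108989 to 110000 transcripts above 0, near the numbers of venlafaxine and saline set II, and were placed with them on that ground. Venlafaxine and mianserin differed in 51 of 34622 genes (0.147%), 16 higher (0.0462%) and 35 lower (0.101%) after venlafaxine, as 1 pair of drugs compared. Sgk1 had a mean of 24.0 ± 2.01 FPKM after venlafaxine and 62.9 ± 6.73 after mianserin (SD, n = 4 each; log2 difference -1.35 ± 0.081, limma adjusted p = 1.31e-06). Txnip, an inhibitor of thioredoxin that glucose and glucocorticoids raise, had 4.45 FPKM against 13.9 (log2 difference -1.47), and Fos 1.98 against 5.91 (-1.21).

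Of the lists, 6 of 22 glucocorticoid-responsive genes were lower than after mianserin and 0 higher (Sgk1, Tsc22d3, Nfkbia, Cdkn1a, Ddit4 and Klf9). Of the immediate early genes 4 of 28 were lower (Fos, Junb, Nr4a1 and Klf4) and 0 higher, and of the CREB targets 1 of 19 was lower (Sik1). The splicing regulators Clk1 (25.2 against 17.2 FPKM) and Tra2a (9.97 against 7.15) were higher. Nr4a1 lay at 1.59 to 2.34 FPKM after venlafaxine and at 3.75 to 5.24 after mianserin, with saline set II between them. The number of genes was 27 with the replicate number as a block and 6 when the fit held only the 8 libraries of both drugs. Dose and potency differ between the drugs, so the comparison is of the doses used.

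The effect of venlafaxine differed between NAc and PFCx for 1 of 35419 genes (0.00282%), Gm27288, a gene model of 80 bases. It was listed at or near 0 in all NAc libraries and in the 4 PFCx venlafaxine libraries, and at 10.8, 1.20, 6.82 and 8.89 FPKM in the PFCx saline libraries. None of the other genes named here passed that test.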

How the data were processed

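Total RNA of 12 NAc libraries (4 venlafaxine, 8 saline) was analysed, with the other NAc libraries and, for the tissue comparison, PFCx libraries in the fits. Per the submitters' processing notes, reads were aligned with TopHat2 2.0.1 to mm10 and quantified per transcript with Cufflinks 2.2.1. The deposited values are FPKM per transcript as the authors computed them, beside a coverage column, which served only to sum aligned bases. Read counts were not used here, so no count model was run.

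FPKM was summed per gene symbol over 112714 transcripts and 46686 symbols, and log2(FPKM + 1) of features with a mean of at least 0.1 FPKM was fitted with limma 3.58.1 (R 4.3.3, data.table package 1.17.8) and Benjamini-Hochberg adjustment over all features. Fold changes on this scale understate those of low genes. The fit against all saline held 32 NAc libraries in 7 groups, with both saline sets as one group. The fit against saline set II, also used for mianserin, held 16 libraries in 4 groups, and the tissue fit held 32. Single values were also tested with the two-sided exact permutation test. Python 3.11.15, numpy 2.4.6, scipy 1.17.1, pandas 2.3.3 and matplotlib 3.10.9 were used, and the fit was tested on simulated data.

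Genes were named by rule: up to 10 per direction with the lowest p against saline set II, a mean of at least 1 FPKM and all venlafaxine libraries outside the range of the 8 saline libraries, as no gene passed against both controls. Further named were Slc6a4 and Slc6a2, from each of 22 lists the members with p under 0.01 or else the member with the lowest p, the 15 Dclk1 transcripts, and the 10 transcripts with the lowest p outside the saline range. Other genes given, among them Junb, Npas4, Egr2, Fos, Vgf, Matk and Gm27288, were chosen after their values were seen. The members and lists were chosen with earlier results of these data known.

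Replicate numbers come from the sample titles. Deviations of venlafaxine and saline set II libraries with the same number correlated with r of 0.113, 0.101, 0.115 and 0.374, each above 0.1. The numbers were therefore used as a replicate block in an alternative fit. The main fits, their intervals and the exact tests did not use this pairing. Promoters were taken from RefSeq (GRCm38.p6). The alternatives were other pseudocounts, filters, scalings, libraries in the fit, a replicate block and leaving out each library.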

Additional observations from a re-analysis of the deposited data

Results flagged for a closer look

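Among 195 groups of 4 libraries looked at, the highest or lowest library stood apart from the others in 13, where chance gives about 1 in 20. Of venlafaxine replicate 3, the FPKM of Gm28320 was 1.85 (next library 1.58), that of Gm13127 2.67 (next 3.06, as gene and as transcript), and that of mt-Nd3 365 (next 282). In saline set II, Nucks1 stood at 16.2 in replicate 1 (next 15.2), Saxo2 at 1.69 in replicate 3 (next 1.32), Per1 at 9.30 in replicate 4 (next 7.52) and Slc4a5 at 0.246 in replicate 4 (next 0.439). In the same set mt-Nd3 stood at 291 in replicate 3 (next 256) and the Dclk1 transcript ENSMUST00000198412 at 5.23 in replicate 2 (next 0.788). In saline set I, Arc stood at 6.44 in replicate 2 (next 7.32), Lhx8 at 1.63 in replicate 3 (next 0.736) and Hba-a2 at 29.0 in replicate 3 (next 22.6).

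The effect of venlafaxine on Gm27288 differed between NAc and PFCx by 2.74 on the log2 scale (SE 0.37, limma adjusted p = 0.002), the PFCx saline libraries being the ones above 0.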

How the results depend on the processing

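Against all saline, the 26 genes became 1467 without a filter, 54 with a mean-variance trend, 247 with 75th percentile rescaling, 294 with transcripts of at least 200 bases, 0 with the 12 libraries alone and 6935 with saline set I as the control. Leaving out 1 library gave 0 (venlafaxine replicate 3) to 1240 genes, 105 without venlafaxine replicate 2, 695 to 1240 without a saline set II library and 9 to 13 without a saline set I library. Against saline set II, the 0 genes became 1 with a pseudocount of 0.1 and 0 to 1 when leaving out 1 library. The 6 transcripts against all saline became 12 with a pseudocount of 0.1, 433 without a filter, 29 with a mean of at least 1 FPKM, 2 with 12 libraries, 4113 with saline set I alone and 1 to 90 without 1 library. The 1 transcript against saline set II became 0 with a pseudocount of 0.1, 0 with a mean of at least 1 FPKM, 3 without a filter, 3 with 8 libraries, 0 with all 32 and 1 to 3 without 1 library. The 51 genes against mianserin became 25 with a pseudocount of 0.1, 27 with the replicate block, 6 with 8 libraries and 19 to 32 without 1 library. The 1 tissue difference became 3 without a filter, 0 with a mean of at least 1 FPKM, 50 with only the 16 libraries compared and 1 to 94 without 1 library (94 without PFCx saline replicate 2). The cause was not tested. The replicate block gave 36 genes against all saline, 24 of them among the 26, and 5 of the 6 transcripts. It left 0 genes and 1 transcript against saline set II and 1 tissue difference.

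Of 69 named results under 1246 settings, 1226 kept direction and side of the threshold, and 20 in 11 results changed sign. None of these results passed against saline set II in the main fit, so the same side means not passing. Those named for lying outside the saline range were also unlikely to change sign. Phf6 became -0.004 with aligned bases. Without 1 library, the log2 difference ranged from -0.108 to 0.032 for Slc6a4, -0.060 to 0.003 for Slc6a2, and for Dclk1 transcripts -0.014 to 0.086 (ENSMUST00000070418), -0.014 to 0.266 (ENSMUST00000196745), -0.278 to 0.154 (ENSMUST00000197870), -0.176 to 0.497 (ENSMUST00000198154), -0.148 to 0.821 (ENSMUST00000198412), -0.078 to 0.014 (ENSMUST00000198437), -0.177 to 0.118 (ENSMUST00000199169) and -0.201 to 0.350 (ENSMUST00000200348). The immediate early genes below 0 against saline set II numbered 24 of 28, and 21 to 24 without 1 library (21 without venlafaxine replicate 3). With rescaling to the 75th percentile the median of all genes was 0.063 against all saline and 0.015 against saline set II, beside 0.023 and -0.001 without. The comparison of the saline sets, the length classes and the PFCx values of the immediate early genes were chosen after seeing the data. With 4 libraries a group and unknown read depth per gene, an observed difference smaller than the half-width of its interval could not be told from 0.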

Other observations

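Genes of the ribosome were not on any list and were counted after the values were seen. Of 83 ribosomal protein genes with a mean of at least 1 FPKM, 74 were below 0 against saline set II with a median log2 difference of -0.17. At an unadjusted p under 0.05, 6 were lower and 0 higher. Of all 34622 genes tested, also those below 1 FPKM, 2.82% were lower and 2.04% higher. Of the 1887 genes of at least 1 FPKM with a longest transcript of over 200 and up to 1000 bases, 141 were lower and 24 higher. The part of transcript length in the ribosomal difference was not tested. Their summed FPKM was 2370 to 2690 after venlafaxine, 2540 to 2830 in saline set II and 2810 to 3330 in saline set I, so that the first 2 ranges overlapped. Against all saline the median was -0.48.

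Among genes with a mean of at least 1 FPKM, 754 had a longest transcript of up to 200 bases. Their median log2 difference was 0.062 from saline set II and 0.324 from all saline. The class of over 200 and up to 1000 bases had the opposite sign, with -0.089 and -0.164. The smooth muscle actin gene Acta2 had a log2 difference of 0.21 from saline set II (unadjusted p = 0.0171) and Ugt8a, an enzyme of myelin lipid synthesis, of -0.20 (unadjusted p = 0.0343).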
